A study of Mus musculus with 6 samples.

Results

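Genes of T, natural killer (NK) and B lymphocytes were followed in RNA sequencing libraries of mouse KP cells. The set held 56 genes of the 48526 gene identifiers in the count tables. The 56 were chosen from earlier results of these same libraries, in which lymphocyte transcripts differed between cells without and with doxycycline, so for these genes that difference is a description: calls from the test over all genes are counted beside their share of all genes, and nothing is read from them. All 56 were found under 1 identifier each. The untreated libraries held transcripts of T cells, of CD4 and of CD8 type, of cytotoxic genes and of immunoglobulin, at low read counts. Over the 3 treated libraries, 30 of the 56 genes had at most 3 reads, and 19 of these had at least 30 untreated reads. The rest of the 30 had fewer untreated reads, down to 1 for Ncr1 and for Ms4a1. These counts are given without the share over all genes, and nothing is read from them. Other genes, among them Tcf7, Trac, Trbc1, Lck, Eomes and Ptprc, kept from 33.4% to 86.1% of the untreated level.

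KP is the name that the labels give the cells; they name neither a tissue nor any lymphocytes among them. The cells carried the vector pLKO.1-Tet on-shNpm1-3, -4 or -5, which makes a hairpin RNA against Npm1, the gene of the nucleolar protein nucleophosmin, once doxycycline is given. Selection with 2 ug/ml puromycin gave 3 stable lines, called line 3, line 4 and line 5 here after their hairpins. Each line gave 1 library without doxycycline (untreated) and 1 with 100 ng/ml doxycycline (treated), so that there were 3 libraries per group, the lines stand in for replicates, and an effect of doxycycline cannot be told apart from that of the hairpins, since no treated cells lacked a hairpin against Npm1.

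The libraries held 24391198 to 27341036 reads counted in genes, and 3 reads equal 0.0991 to 0.137 CPM (counts scaled to a common library size). Npm1 went from 1851 to 2002 CPM in the untreated libraries to 67.8, 245 and 400 CPM in the treated libraries of lines 3, 4 and 5, as the labels state. Keratin 8, an epithelial filament gene, had 3537 to 4289 CPM in all 6 libraries. Per kilobase of exon, Cd3e of the T cell receptor complex stood at 0.000161 ± 0.000016 (SD, n = 3) of the level of Krt8 in the untreated libraries. Raw counts and CPM are given below in the order of lines 3, 4 and 5. In RNA from a whole culture, fewer cells of a type and less RNA per cell cannot be told apart.

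T cells recognise antigen through a receptor made of an alpha and a beta chain, assembled in each cell from V, D and J segments and joined to a constant segment, which signals through the CD3 chains, the zeta chain Cd247 and the kinases Lck and Zap70. CD4 and CD8 are the coreceptors of helper and killer T cells. Killer T cells and NK cells store perforin and granzymes in granules. B cells carry immunoglobulin on the surface, with Cd79a and Cd79b as its signalling partners.

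The stretch before the start of a gene carries part of the sequence that sets its transcription. Of the 56 genes, 35 had an entry in the RefSeq promoter table (build GRCm38.p6), and 250 bases before each start were searched for 2 motifs of factors active in lymphocytes. These were TGTGGT, a RUNX core, and AGGAAGT, an ETS core, each on both strands; the 2 motifs do not overlap in letters. The RUNX letters were found for 15 of the 35 genes and in 15.9% of the 27025 genes in the table, and the ETS letters for 14 of the 35 and in 8.80% of all. A gene can have more than 1 start in the table, and a match is only a match of letters. The 6 windows below, on the strand of the gene, are from 4 genes with 0 to 2 treated counts over the group (Cd3d, Cd3e, Gimap4, Gzma) and from 2 with many (Lck, Eomes), with motif matches in capitals.
Cd3d: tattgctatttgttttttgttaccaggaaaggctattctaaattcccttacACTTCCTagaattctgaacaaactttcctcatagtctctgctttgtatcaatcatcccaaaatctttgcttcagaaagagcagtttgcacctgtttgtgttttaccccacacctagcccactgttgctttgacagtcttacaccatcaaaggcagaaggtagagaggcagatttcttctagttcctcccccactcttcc
Cd3e: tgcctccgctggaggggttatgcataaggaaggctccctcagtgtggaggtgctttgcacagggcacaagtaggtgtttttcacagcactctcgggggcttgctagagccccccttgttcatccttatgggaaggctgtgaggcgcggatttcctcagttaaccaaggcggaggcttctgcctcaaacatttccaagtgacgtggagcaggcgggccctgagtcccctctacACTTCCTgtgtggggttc
Gimap4: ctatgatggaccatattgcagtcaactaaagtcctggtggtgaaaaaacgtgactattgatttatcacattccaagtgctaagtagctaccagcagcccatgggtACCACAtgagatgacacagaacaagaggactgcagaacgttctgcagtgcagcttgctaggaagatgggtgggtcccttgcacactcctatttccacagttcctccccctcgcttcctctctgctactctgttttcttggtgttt
Gzma: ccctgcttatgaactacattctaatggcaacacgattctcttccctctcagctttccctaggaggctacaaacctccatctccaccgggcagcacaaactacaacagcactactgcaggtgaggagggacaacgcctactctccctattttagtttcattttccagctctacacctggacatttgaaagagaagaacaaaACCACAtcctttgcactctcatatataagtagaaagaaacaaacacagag
Lck: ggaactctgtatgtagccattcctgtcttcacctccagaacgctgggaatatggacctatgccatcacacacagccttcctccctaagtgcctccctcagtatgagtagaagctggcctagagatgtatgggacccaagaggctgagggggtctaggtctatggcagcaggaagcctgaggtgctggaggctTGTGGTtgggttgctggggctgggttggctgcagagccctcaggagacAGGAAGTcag
Eomes: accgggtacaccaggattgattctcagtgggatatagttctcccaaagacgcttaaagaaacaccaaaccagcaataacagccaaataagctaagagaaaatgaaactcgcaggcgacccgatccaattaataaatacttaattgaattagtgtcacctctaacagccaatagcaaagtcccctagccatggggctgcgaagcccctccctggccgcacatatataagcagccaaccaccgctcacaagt
These windows lie at chr9:44981536-44981785 on the plus strand (Cd3d), chr9:45009612-45009861 on the minus strand (Cd3e), chr6:48684328-48684577 on the plus strand (Gimap4), chr13:113100982-113101231 on the minus strand (Gzma), chr4:129573642-129573891 on the minus strand (Lck) and chr9:118477939-118478188 on the plus strand (Eomes). Cd3d and Cd3e each held 1 ETS match, Gimap4 and Gzma 1 RUNX match, Lck 1 of each, and Eomes none. The ETS letters were found for 6 of 15 members with under 5% left and at least 10 untreated counts and for 3 of 6 with over 50% left and at least 30 counts, and the RUNX letters for 6 of 15 and 1 of 6.

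The chains of the antigen receptor complex split into genes that were nearly gone with doxycycline and genes that were not. Cd3d, Cd3e and Cd3g, which encode the CD3 chains, lie side by side on chromosome 9 (mm10, 44969572 to 45009627). Cd3d had 36, 37 and 29 counts without doxycycline and 0 in each treated library, at least 34.3-fold lower when 3 counts over the treated group are taken as the floor. Cd3e had 33, 39 and 33 counts against 1, 0 and 1, a ratio of untreated to treated of 53.0 with an exact 95% counting interval of 14.3 to 443. Cd3g had 51, 48 and 30 counts against 1, 0 and 0. For these 3 chains every treated library was below every untreated one, and line 5 had the lowest CPM among the untreated libraries for each. Per kilobase, Cd3d stood at 2.19 ± 0.24 and Cd3g at 1.53 ± 0.40 times the level of Cd3e (SD, n = 3 untreated libraries). The zeta chain Cd247 had 33, 35 and 20 counts against 0, 2 and 2, but 60.3% of its exon bases are shared with other annotated genes, among them Pou2f1 on the other strand, and its counts are less certain for that.

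The constant segments of the receptor chains behaved unlike one another. Trbc2, the second beta constant segment (chromosome 6, 41546730 to 41548352), had 100, 88 and 53 counts without doxycycline and 4, 5 and 5 with it, a log2 fold change of -4.08 (SE 0.40). Trbc1, the first beta constant segment (chromosome 6, 41538218 to 41539881), had 224, 168 and 195 counts against 52, 60 and 142, a log2 fold change of -1.21 (SE 0.35). Trac, the alpha constant segment on chromosome 14, had 114, 155 and 131 counts against 62, 83 and 83, a log2 fold change of -0.82 (SE 0.23). All treated libraries were below all untreated ones for each of the 3, but 9.41% or less of Trbc2 was left in each line, against 27.6% to 72.6% of Trbc1 and 45.1% to 64.7% of Trac. Transcripts of Trbc1 and Trbc2 matched at 95.6% over 521 aligned bases, and a read that aligned equally to both was not counted for either, so the split between them is uncertain.

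The levels of the 43 members with at least 30 counts are plotted by library, and the V, D, J and C segments of the beta chain are given in a map of counts.

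**Figure D1:**
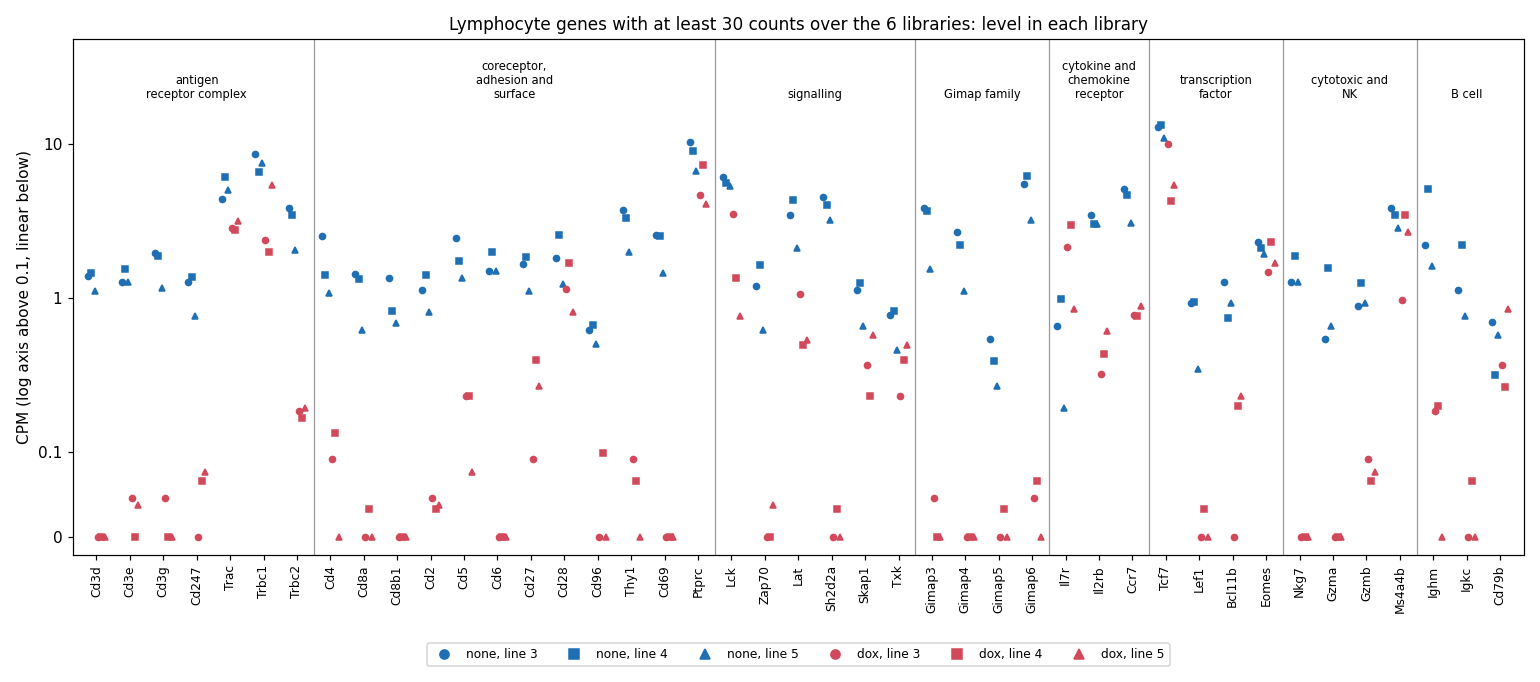
CPM of the 43 members with at least 30 counts over the 6 libraries, by role; circles, squares and triangles are lines 3, 4 and 5, blue without and red with doxycycline, and the vertical axis is logarithmic above 0.1 CPM and linear below. Most red points lie near 0 while those of Trac, Trbc1, Tcf7, Eomes, Ptprc and Ms4a4b lie between 0.961 and 9.98 CPM, and those of Il7r lie above the blue ones of the same line.

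**Figure D2:**
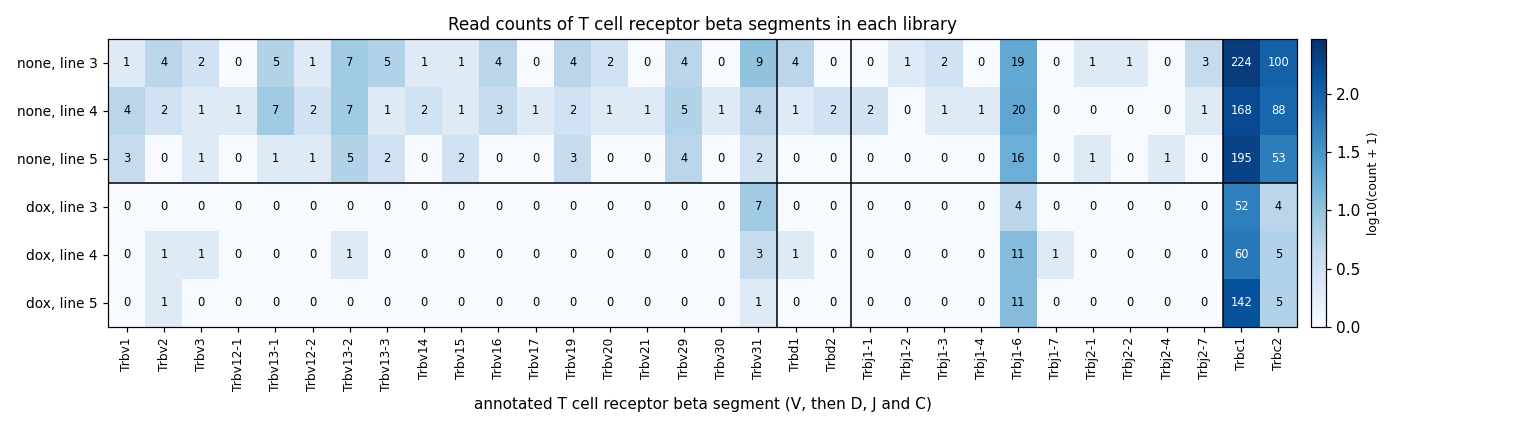
Read counts of each annotated T cell receptor beta segment with at least 1 count in any library, with 1 line of the map per library and with V, D, J and C segments separated by lines; colour is log10 of the count plus 1. The untreated libraries hold counts in 17 V segments besides Trbv31, and the treated libraries hold 4 counts in 3 of them.

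Reads of the beta chain were spread over many variable (V) segments in the untreated libraries. Of 21 annotated Trbv segments other than Trbv31, 13, 17 and 9 had a count in the untreated libraries and 0, 3 and 1 in the treated ones. Their counts came to 41, 42 and 22 without doxycycline and to 0, 3 and 1 with it. The largest segment, Trbv13-2, had 19 of the 105 untreated counts, or 18.1%, and 9 segments were seen in all 3 untreated libraries, so the reads did not come from a single V segment. Trbv31, which lies beyond Trbc2 on the other strand, had 9, 4 and 2 counts against 7, 3 and 1, and did not separate the groups. Trbj1-6, which ends 2612 bases before Trbc1, had 19, 20 and 16 counts against 4, 11 and 11. The treated libraries thus held reads of Trbc1 and of its neighbour Trbj1-6 with few reads of V segments. For the alpha chain, 31 of 108 V segments had 45 counts without doxycycline and 1 had 1 count with it. The alpha J segments had 8, 3 and 5 counts against 1, 8 and 5, with overlapping groups.

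The gamma and delta chains form the receptor of gamma-delta T cells. Trdc and Trdv4 of the delta chain did not follow the beta chain, and the gamma segments had too few counts to tell. The gamma constant segments had 1, 4 and 2 counts against 0, 1 and 2. The delta constant segment Trdc had 33, 29 and 32 counts against 25, 52 and 38, and Trdv4, a V segment of the same locus, had 293, 193 and 214 against 178, 265 and 298. The groups overlapped for Trdc and for Trdv4, and both had reads in every library, though the counts of Trdc were low.

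Coreceptors showed both CD8 and CD4 transcripts in the untreated libraries. Cd8a, the CD8 alpha chain, had 37, 34 and 16 counts without doxycycline and 0, 1 and 0 with it. Cd8b1, the beta chain that CD8 T cells but few NK or dendritic cells carry, had 35, 21 and 18 counts against 0 in each treated library, at least 24.9-fold lower. Cd4 had 65, 36 and 28 counts against 2, 4 and 0, a log2 fold change of -4.36 (SE 0.65). The untreated and treated ranges were apart for all 3. Per kilobase, Cd4 stood at 1.59, 0.955 and 1.58 times Cd8a in lines 3, 4 and 5 (mean 1.37 ± 0.36, SD). Before division by length, the CPM of Cd4 were above those of Cd8a in all lines. The order in line 4, with 36 and 34 counts, thus depended on the exon length and is uncertain.

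Most other surface proteins of T cells were nearly absent from the treated libraries. Cd6, an adhesion receptor of T cells, had 39, 51 and 39 counts against 0 in each treated library. Cd69, the early activation and tissue-retention marker, had 66, 64 and 38 counts against 0, at least 56.5-fold lower. Thy1, a T cell surface glycoprotein, had 97, 84 and 52 counts against 2, 2 and 0. Cd2, an adhesion receptor, had 29, 36 and 21 counts against 1 in each treated library, and Cd96, of T and NK cells, had 16, 17 and 13 against 0, 3 and 0. Cd5, a brake on receptor signalling that some B cells also carry, had 64, 44 and 35 counts against 5, 7 and 2, so that a few reads remained in each treated library. Cd7, a T and NK cell receptor, had 4, 9 and 7 counts against 0, 1 and 0 and was too low for the test.

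Cd27, Cd28 and Ptprc kept more. Cd27, a costimulatory receptor, had 43, 47 and 29 counts against 2, 12 and 7, with 5.53%, 21.5% and 24.1% left. Cd28, the receptor for the second signal of T cell activation, had 47, 65 and 32 counts against 25, 51 and 21, a log2 fold change of -0.61 (SE 0.38) with overlapping groups. Ptprc (CD45), found on all white blood cells, had 267, 229 and 174 counts against 102, 219 and 106, again with overlapping groups. The activating receptor Cd226 had 2, 4 and 0 counts against 0, 0 and 2 and was near the floor in every library.

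Signalling genes also divided into those nearly gone and those that stayed in part. Zap70, the kinase that binds the receptor chains, had 31, 42 and 16 counts against 0, 0 and 1. Sh2d2a, an adaptor of activated T cells, had 118, 102 and 83 counts against 0, 1 and 0, a ratio of 306 (exact 95% counting interval 54.5 to 12120). Lat, the scaffold that Zap70 phosphorylates, had 90, 110 and 55 counts against 23, 15 and 14, a log2 fold change of -2.27 (SE 0.40). For these 3 the groups did not overlap, and Lat kept 11.5% to 30.4% of its level. Lck, the kinase that starts receptor signalling, had 158, 141 and 138 counts against 77, 41 and 20, and kept 57.9%, 24.5% and 14.4% in lines 3, 4 and 5. Skap1, an adaptor of integrin activation, had 29, 32 and 17 counts against 8, 7 and 15, and Txk, a kinase of the Tec family, had 20, 21 and 12 against 5, 12 and 13. Skap1 kept 88.0% and Txk 108% in line 5 but 32.8% and 29.7% in line 3, and 18.4% and 48.2% in line 4.

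The Gimap genes encode GTPases of immune cells that keep resting lymphocytes alive, and the 6 members lie in 1 cluster on chromosome 6 (48684549 to 48770851). Together they came to 12.8, 13.1 and 6.68 CPM without doxycycline and to 0.0916, 0.132 and 0.0383 with it. Gimap6 had 143, 158 and 84 counts against 1, 2 and 0, Gimap3 had 99, 93 and 40 against 1, 0 and 0, and Gimap4 had 69, 56 and 29 against 0 in each treated library. Gimap5 (14, 10 and 7 against 0, 1 and 0), Gimap7 (4, 13 and 9 against 0) and Gimap1 (4, 4 and 5 against 0, 1 and 1) were too low for the test. No treated library of any Gimap gene reached the lowest untreated one, and at most 1.01% of the summed level was left in a line. Gimap1 shares 36.0% of its exon bases with other annotated genes.

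Receptors for cytokines and chemokines included the 1 member that was higher in every treated line. Il2rb, a shared chain of the interleukin 2 and 15 receptors, had 90, 77 and 78 counts against 7, 13 and 16, a log2 fold change of -2.77 (SE 0.33). Ccr7, the homing receptor of naive and central memory T cells and of migrating dendritic cells, had 133, 118 and 80 counts against 17, 23 and 23, a log2 fold change of -2.40 (SE 0.30). The effector receptors Cxcr3 (2, 8 and 6 counts against 0, 0 and 1) and Cxcr6 (4, 7 and 9 against 0, 2 and 1) were low throughout. Il7r, the interleukin 7 receptor chain of naive and memory T cells, had 17, 25 and 5 counts without doxycycline and 47, 90 and 22 with it, 329%, 303% and 439% of the untreated level of the same line. The groups of Il7r overlapped, because the treated library of line 5 was below the untreated library of line 4.

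The transcription factors of T cells together came to 17.4, 17.4 and 14.1 CPM without doxycycline and to 11.5, 6.81 and 7.35 with it, or 65.9%, 39.1% and 52.2% left in lines 3, 4 and 5. Tcf7 (TCF-1), a factor of naive and memory T cells that epithelial cells can also express, made up most of it, with 335, 339 and 284 counts against 218, 129 and 142. Eomes, a factor of memory CD8 T cells and NK cells, had 60, 54 and 50 counts against 32, 70 and 44, and the groups overlapped. Lef1, a partner of TCF-1 in naive T cells, had 24, 24 and 9 counts against 0, 1 and 0, and Bcl11b, which fixes T cell identity, had 33, 19 and 24 against 0, 6 and 6. Tbx21 (T-bet), of type 1 helper and NK cells, had 1, 8 and 0 counts against 1, 0 and 0 and was near the floor. So Lef1 was nearly absent from the treated libraries while its partner Tcf7 kept 77.4%, 32.1% and 49.9% in lines 3, 4 and 5.

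The 4 members that encode proteins of cytotoxic granules were present without doxycycline and nearly absent with it. Nkg7, a granule membrane protein, had 33, 48 and 33 counts against 0 in each treated library, at least 38.4-fold lower. Granzyme A (Gzma) had 14, 40 and 17 counts against 0, and granzyme B (Gzmb) had 23, 32 and 24 against 2 in each treated library. Perforin (Prf1) had 8, 7 and 3 counts against 0. Line 4 was the highest of the untreated libraries for Nkg7, Gzma and Gzmb. The NK receptors among the members were near the floor of 3 counts: Ncr1 had 1 count in 1 untreated library, Klrd1 had 3, 5 and 3 counts against 0, 1 and 3, and Klrk1 had 2, 5 and 4 against 0, 3 and 0. The surface protein Ms4a4b, of T and other blood cells, had 100, 88 and 74 counts against 21, 105 and 70, so that it was low in the treated library of line 3 alone.

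Among the B cell genes, immunoglobulin transcripts were higher in the untreated libraries, Cd79b had reads in all libraries, and several defining markers stood near 0. Ighm, the heavy chain of IgM, had 57, 130 and 42 counts without doxycycline and 4, 6 and 0 with it, and Igkc, the kappa light chain constant segment, had 29, 56 and 20 against 0, 2 and 0. Both were highest in line 4. Ms4a1 (CD20) had 1 count in 1 untreated library, Cd79a had 2, 1 and 1 counts against 1, 5 and 3, and Cd79b had 18, 8 and 15 against 8, 8 and 22. Per kilobase, Ighm stood at 4.57 ± 2.34 times Cd3e, and Cd79a at 0.0287 ± 0.0178 times Ighm (SD, n = 3 untreated libraries). The further B cell markers Ebf1 and Blk had 0 counts in every library, and Pax5 had 2, 0 and 1 against 0. Variable segments of immunoglobulin showed 54 of 215 with a count without doxycycline and 14 with it, for 93 and 24 counts, when 3 segments are left out. These 3, Igkv12-89, Igkv4-63 and Ighv1-58, held 100 counts without doxycycline and 143 with it.

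Among the 56 genes, 43 had every treated library below every untreated one, 0 had every treated library above, and the other 13 overlapped. Among the 41 members that passed the filter on low counts, 34 had every treated library below and 0 above. The shares over the 14531 genes tested, which passed the same filter, were 11.2% and 11.3%. The filter on low counts kept 41 members, of which 28 were called lower with an adjusted p under 0.05 by edgeR, against 1.32% of all genes tested, 0 were called higher (0.963% of all genes), and 13 were not called. DESeq2 and limma-voom also called 0 members higher, and at an unadjusted p under 0.05 edgeR gave 1, Il7r. The other 15 were not tested. These counts follow from how the genes were chosen and are read no further. The median log2 fold change of the 41 was -4.08, against 0.00 over all genes tested. Without both libraries of line 4 the count of members called lower was 11.

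What was left of each gene is plotted by line. Of the 43 members with at least 30 counts, 22 kept under 5% of the untreated level by the ratio of group means, 8 kept 5% to 20%, and 13 kept over 20%. The 19 genes with at least 30 untreated and at most 3 treated counts came together to 35.3, 38.3 and 22.1 CPM without doxycycline, of which 0.649%, 1.04% and 0.520% were left in lines 3, 4 and 5. All 56 came to 122, 125 and 87.1 CPM, of which 27.5%, 26.3% and 34.8% were left. The summed share of all members is thus carried by the few genes that stayed.

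**Figure D3:**
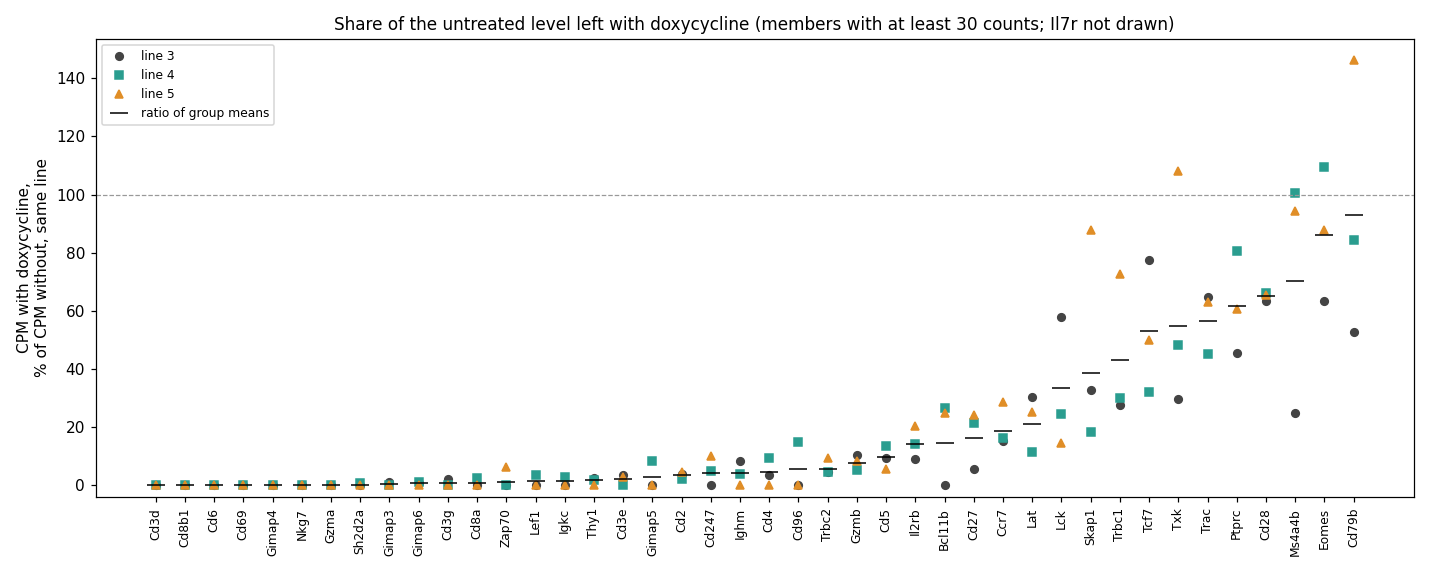
CPM with doxycycline as a percent of the CPM without it in the same line, for 42 of the 43 members with at least 30 counts, in order of the ratio of group means (black bar); circles, squares and triangles are lines 3, 4 and 5. Genes at the left lie at 0% in all lines; the right end, from Lat to Cd79b, spreads from 11.5% to 146%, and Il7r, at 303% to 439%, is not drawn.

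Markers of lymphocyte subsets outside the 56 genes were read from 12 lists of 111 genes. Of these, 57 passed the filter on low counts, 14 were lower and 1 higher by edgeR with an adjusted p under 0.05 (1.32% and 0.963% of all genes tested), 42 did not pass the test, and 54 were too low to be tested. Their median log2 fold change was -0.44, against 0.00 over all genes. Since the lists were written with earlier results in view, the counts are a description. The number called lower was 6 and 7 without the untreated library of line 3 or line 4, 24 and 21 without the treated library of line 3 or line 4, and 4 without both libraries of line 4.

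Genes of T cell activation in these lists were among the 14. Prkcq, a protein kinase C of the receptor contact, had 43, 45 and 14 counts against 0 (adjusted p = 0.0082 by edgeR). The groups did not overlap for Prkcq. The inhibitory receptor Ctla4 had 66, 62 and 44 counts against 0 in each treated library (adjusted p = 0.0011 by edgeR), and the costimulatory receptor Icos had 33, 23 and 20 against 1, 2 and 0 (adjusted p = 0.00429 by edgeR). The chemokine Ccl5, made by killer T and NK cells, had 120, 125 and 97 counts against 9, 3 and 3, a log2 fold change of -4.46 (SE 0.45, adjusted p = 0.00102 by edgeR). Runx3, which sets the CD8 fate, had 17, 19 and 17 counts against 1, 0 and 0, and Satb1, a chromatin organiser of thymocytes and naive T cells, had 41, 39 and 19 against 1, 0 and 0 (adjusted p = 0.0043 and 0.0027 by edgeR).

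The other genes called lower were Ptpn22 and Ptprcap of receptor signalling, the inhibitory receptor Havcr2, and Coro1a, Rac2, Ikzf1 and Itgal, which many white blood cells share. Their log2 fold changes ran from -1.14 for Ptpn22 (SE 0.23, adjusted p = 0.03 by edgeR) to -2.82 for Ptprcap (SE 0.52, adjusted p = 0.0201 by edgeR). The gene called higher was Entpd1 (CD39), an ectoenzyme of exhausted and regulatory T cells that macrophages and other cells carry too, with 14, 20 and 16 counts against 37, 86 and 52 (log2 fold change 1.75, SE 0.34, adjusted p = 0.0268 by edgeR). It was not called without the untreated library of line 3, 4 or 5, without the treated library of line 4, or without both libraries of line 4 or 5.

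By list, 4 of 7 tested genes of receptor signalling were called lower, 2 of 6 CD8 and cytotoxic, 1 of 5 CD4 helper and 1 of 3 regulatory T cell. The same held for 1 of 4 naive, 1 of 5 exhaustion and 4 of 15 general white blood cell genes. Over all genes tested, 1.32% were called lower and 0.963% higher. Of the gamma-delta T cell (2 tested), NK (2), resident (5), B cell (1) and plasma cell (2) lists edgeR called 0 genes, with 3 of the 12 at an unadjusted p under 0.05 (Rgs1, Cd37 and Itga1) and 0 called by DESeq2 or limma-voom. Over all the lists, 42 of the 57 tested genes did not pass the test. How specific these genes are to lymphocytes was not tested. The helper genes Bhlhe40 (log2 fold change -0.53, SE 0.13) and Zbtb7b (-0.38, SE 0.14) were among them. The regulatory T cell factor Ikzf2 (-0.19, SE 0.40) and the receptor Tnfrsf18 (0.05, SE 0.38) did not pass either. Of the resident list, Itga1 (0.35, SE 0.13), P2rx7 (-0.07, SE 0.26) and Rgs1 (-1.01, SE 0.40) did not pass, and of the exhaustion list Tigit (-0.26, SE 0.20), Tox (-0.24, SE 0.30) and Lag3 (-0.19, SE 0.32) did not. The same was found for Igfbp4 (-0.50, SE 0.19) and S1pr1 (-0.91, SE 0.33) of naive cells, Fyb (-0.05, SE 0.31), Lcp2 (-1.78, SE 0.45) and Grap2 (-1.80, SE 0.41) of receptor signalling and Ctsw (-1.42, SE 0.37) of cytotoxic cells. Gzmm, a granzyme of the same list, had 7, 10 and 14 counts against 4, 8 and 19 (-0.02, SE 0.55), with overlapping groups, and did not pass. Sox13 (-0.43, SE 0.25) of gamma-delta T cells, Cd37 (-1.04, SE 0.38) of B cells, and Derl3 (0.40, SE 0.47) and Prdm1 (-0.12, SE 0.54) of plasma cells did not pass either. Jchain, the joining chain of secreted IgM and IgA, had 6, 11 and 4 counts against 2, 1 and 0 and was too low for the test. Lcp1 (0.68, SE 0.28), Cd53 (-0.53, SE 0.20) and Laptm5 (-0.32, SE 0.37), which most white blood cells express, did not pass.

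By subset, the untreated libraries held low counts of regulatory T cell genes, while the lists of NK and gamma-delta T cell genes were mixed, with some markers near 0 and others with reads in every library. Foxp3, the factor of regulatory T cells, had 18, 13 and 8 counts against 1, 1 and 0, and Il2ra, their interleukin 2 receptor chain, had 6, 6 and 4 against 0. Cd40lg, of helper T cells, had 4, 6 and 1 counts against 0, and Pdcd1 (PD-1) had 6, 3 and 7 against 0. The NK receptors Klrb1c (NK1.1; 2, 1 and 0 against 0, 0 and 2) and Klra8 (0 counts in all libraries) stood near 0. Other genes of the NK and killer cell lists had reads in all 6 libraries and did not pass the test: Klra4 had 9321, 7497 and 8617 counts against 6496, 13329 and 12104, Klrc1 had 605, 525 and 542 against 153, 570 and 1017, and Il18rap had 419, 517 and 550 against 186, 464 and 745. The tissue-residence factor Zfp683 had 1 count in all. Itgae (CD103), of the same resident list, went the other way from Cd69, with 33, 22 and 22 counts against 49, 50 and 29. It was higher with doxycycline in each line, but the groups overlapped and it did not pass the test (log2 fold change 0.74, SE 0.36). The plot of subset markers sets several of these genes side by side.

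**Figure D4:**
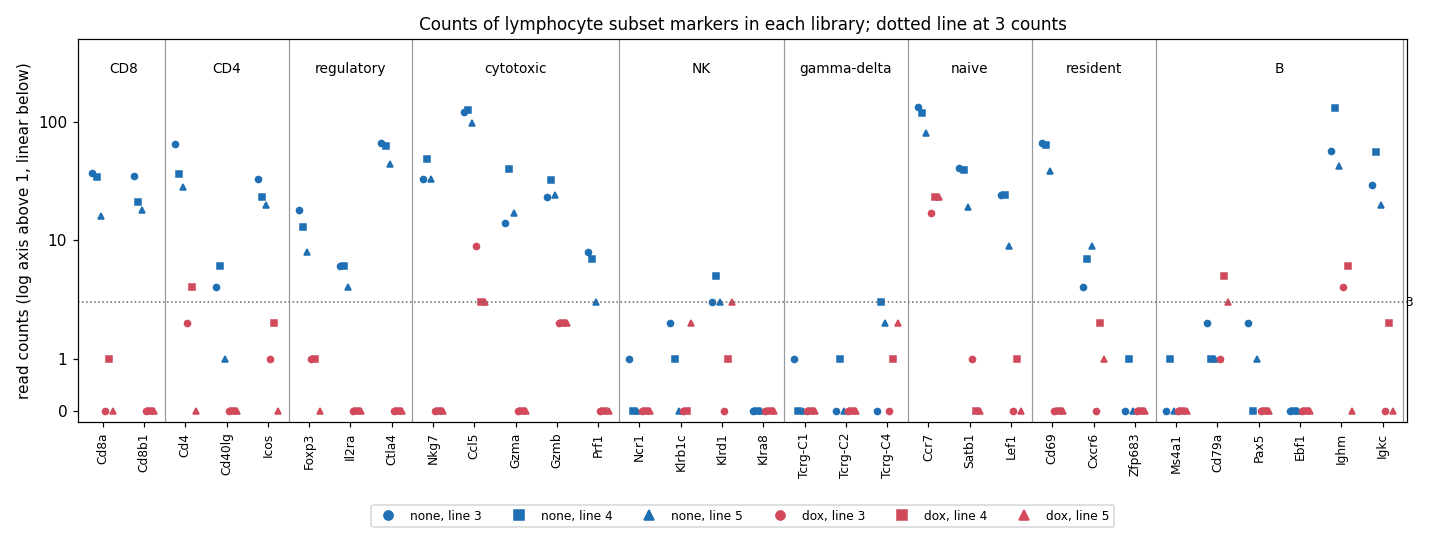
Read counts of lymphocyte subset markers, members and others, in each library; symbols and colours mark lines and treatment, the vertical axis is logarithmic above 1 count and linear below, and the dotted line marks 3 counts. Blue points of the CD8, CD4, regulatory, cytotoxic and naive groups lie above the red ones. The NK and gamma-delta markers drawn and Ms4a1, Cd79a, Pax5 and Ebf1 have at most 5 counts in any library. Klra4, Il18rap, Trdc and Itgae, which have reads in every library, are not drawn.

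CPM divided by the exon length in kilobases (RPKM) give the order of members within the untreated libraries. Trbc1 was highest at 10.1 ± 1.4 RPKM (SD, n = 3), and its range did not overlap that of the next, Trac at 5.52 ± 0.91. From Trac through Tcf7 (4.71 ± 0.49), Trbc2 (4.50 ± 1.38), Igkc (2.56 ± 1.40), Ccr7 (2.16 ± 0.54), Lck (1.92 ± 0.14), Nkg7 (1.61 ± 0.39) and Ighm (1.57 ± 0.99), the range of each overlapped that of the one after it, so the order among these neighbours is not beyond the spread between lines. Members that stayed with doxycycline stood at both ends of this order, from Trac and Tcf7 to Txk (0.0625 ± 0.0179).

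Among the untreated libraries, line 5 had the lowest CPM for 42 of the 56 genes. This count is given without the share over all genes, and nothing is read from it. The F test of line terms by edgeR, a contrast on which the genes were not chosen, called 0 of the 41 members tested, against 0% of all 14531 genes. At an unadjusted p under 0.05 it gave 667 genes in all, of which 2 were members, Il7r and Ighm, and the lowest adjusted p of a member was 0.868 by edgeR. DESeq2 called 0 members and 16 genes, and limma-voom called 0 of either. With no filter on low counts edgeR called 240 genes and 1 member. This test had 2 residual degrees of freedom, and a difference between lines that it missed is not shown to be absent.

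Macrophage genes were higher with doxycycline, and their values are given because macrophages also carry Ptprc and other genes of white blood cells. Of a list of 17 macrophage and monocyte genes, 16 were tested, of which 11 were called higher with doxycycline and 1, Ly6c2, lower by edgeR, against 0.963% and 1.32% of all genes tested. The whole list came to 460, 434 and 400 CPM in the untreated libraries and to 407, 609 and 552 in the treated ones. Without Mrc1, which had 3492 to 10743 counts in every library, the list came to 46.5, 47.9 and 51.5 CPM in the untreated libraries and to 247, 381 and 171 in the treated ones. The defining marker Adgre1 (F4/80) had 1, 0 and 1 counts against 194, 471 and 180, and Csf1r had 49, 91 and 88 against 194, 383 and 196. Of 7 lists of other cell types, the dendritic cell list had 1 of 5 tested genes higher (Itgax), the erythroid and platelet list 1 of 2 (Pf4) and the epithelial list 1 of 6 lower (Cldn4), and edgeR called 0 of the 5 genes tested in the neutrophil, mast cell, endothelial and fibroblast lists, with 2 at an unadjusted p under 0.05 and 0 called by DESeq2 or limma-voom. Among the members that kept over 20%, the treated library of line 4, the highest of the 3 for this sum, was also the highest for Ptprc (7.23 CPM), Cd28, Il7r (2.97 CPM), Eomes and Ms4a4b (3.47 CPM). It was the lowest of the 3 for Tcf7 (4.26 CPM), Trbc1 (1.98 CPM), Trac (2.74 CPM), Skap1, Lat and Cd79b, and between the other two for Lck and Txk. The part of macrophages in what was left of these genes was not tested.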

How the data were processed

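Total RNA of 6 libraries, 3 untreated and 3 treated, was analysed. The authors deposited raw counts of reads for each gene, as whole numbers. The submitters' processing notes list STAR, HTSeq, Picard, CASAVA, bedtools, DESeq2 and R 3.3.0 and name mm10 as genome build. The sources used here give neither annotation release nor strand setting. Genes overlapping on opposite strands can thus not be separated, and reads aligned to several places are not counted. Entries that name no gene, 43.8% to 47.7% of reads, were left out.

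Symbols, coordinates and exon lengths were taken from GENCODE M21 (48144 of 48526 identifiers matched), and promoter windows from RefSeq. Tests ran over all genes with edgeR 4.0.16 under R 4.3.3 (filterByExpr, TMM scaling, glmQLFit with legacy = TRUE, quasi-likelihood F test, Benjamini-Hochberg adjustment), which was tested on simulated data. Each standard error was |log2 fold change| over the square root of the F statistic. CPM used TMM-scaled library sizes. Ratios were computed for genes with more than 3 counts in at least 1 group. Where both groups had counts, the ratio has an exact binomial 95% interval. Where a group had 0 counts, it is a bound against 3 counts over the group. Interval and bound cover counting error only. Identity of transcripts was computed with blastn 2.17.0. No 2 libraries were the same: chi-square per degree of freedom was at least 7.86 within groups. The biological coefficient of variation was 18.0%, and p-values measure the spread between lines, not between separate cultures of a line.

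Line numbers pair the samples, since they mark the same stable line. Deviations from group means correlated with r = 0.0048, 0.0674 and 0.0276 within lines 3, 4 and 5.

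The 56 members, the 12 lists of other lymphocyte genes and the 8 lists of other cell types were chosen with earlier results of these data known. The rule for named genes took all members, Npm1 and, from each list, those called and up to 3 others of highest mean CPM; further genes of the lists, mostly defining markers near 0, and the antigen receptor segments other than the constant ones were named after their values were seen. Some genes of the lists were left out of the text and are not reported here. The processing was varied as follows. Other settings were RLE scaling, no filter, DESeq2 1.42.0, limma-voom (limma 3.58.1), other thresholds, each library or line left out, the line as a block, other scalings of summed CPM and the longest transcript as length. After the data were seen, legacy = FALSE and the line test without each library were added.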

Additional observations from a re-analysis of the deposited data

How the results depend on the processing

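Of 614 recomputed log2 fold changes of members, 504 moved by less than the SD between lines and 110 by more. A change of sign came in 4 of them, all of Cd79b (-0.11), which had 0.13, 0.04 and 0.22 without the untreated library of line 3 or the treated library of line 3 or 4, and 0.29 without line 3. The summed CPM of every subset list moved by less than its SD with RLE-scaled or unscaled library sizes, and 9 of the 10 members of highest level per length were the same with the length of the longest transcript. For doxycycline against none, edgeR called 332 genes. This became 121 at an adjusted p under 0.01, 593 under 0.10, 1052 with no filter and 720 with DESeq2, and ranged from 62 to 1551 when a library or a line was left out. Members called lower numbered 28 and ranged from 11 to 33 when a library or line was left out, where 11 is without line 4. With no filter, 1 member was called higher, against 0. Of the other lymphocyte genes, 14 were called lower; this became 8 at an adjusted p under 0.01 and 32 with no filter, and ranged from 4 to 24 with a library or line left out. The 1 called higher became 0 at an adjusted p under 0.01 and 2 with no filter, and ranged from 0 to 3 with a library or line left out. For the lines, 0 genes became 240 with no filter and 16 with DESeq2, and members called became 1 with no filter; leaving out a library gave 0 to 330 genes. With the line as a replicate block, edgeR called 243 genes, 27 members lower, all of them among the 28, and 13 other lymphocyte genes lower. The cause of these differences was not tested. Depth limits genes near 3 counts, which include 13 members with under 30 counts in all.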
